A study of Homo sapiens with 8 samples.

Results

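The 42 genes described here serve glycolysis or the response to low oxygen, and they were followed in IMR90 cells, a strain of normal human lung fibroblasts, given medium from other fibroblasts driven into senescence. Their symbols were listed by role and looked up in a table of 27696 genes, where all 42 were found. There were 3 glucose transporters, 17 glycolytic enzymes, 2 regulators of phosphofructokinase, 2 lactate and pyruvate transporters, 2 pyruvate dehydrogenase kinases, 5 regulators of the HIF pathway and 11 other hypoxia-inducible genes. Of these, 40 had enough counts to be tested, among 13798 tested genes in all. EGLN3, an oxygen-sensing prolyl hydroxylase, and CA9, a carbonic anhydrase of the cell surface, were too low.

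Recipient IMR90 fibroblasts carried no inducible oncogene and were kept for 3 days in conditioned medium. The donors were IMR90 fibroblasts expressing ER:RAS, an oncogenic RAS fused to the estrogen receptor that becomes active on addition of 4-hydroxytamoxifen (4-OHT). Medium came from donors at day 0, 4, 7 or 10 of 4-OHT, and the recipients are called D0, D4, D7 and D10 after that day. D0 was the control and also received medium from ER:RAS cells. All recipients were of 1 cell strain, and donor medium had been collected without serum and given low serum before use. The 2 libraries of each group came from 2 independent experiments, called experiments 1 and 2, which gives 8 libraries of poly(A) RNA. The question was how the recipients' expression follows the changing secretome of the senescent donors.

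Cells break glucose down to pyruvate by glycolysis and can reduce pyruvate to lactate, which is then exported. HIF-1α and HIF-2α, encoded by HIF1A and EPAS1, are transcription factors that are marked by prolyl hydroxylases and degraded through VHL when oxygen is plentiful. When they are stable they bind short DNA motifs and raise many glycolytic genes together with genes for pH control, vessel growth and mitophagy. The HIF proteins are controlled largely by their stability, so transcript levels of HIF1A and EPAS1 do not measure their activity.

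The libraries held 11708193 to 13395912 counts, of which 1.23% to 1.84% fell on the 42 genes. Levels are given as CPM, the count of a gene relative to the library's total on the usual scale of that unit, with totals scaled by TMM, a method that compares the bulk of genes between libraries, and errors of means are SDs over 2 libraries. All 10 fibroblast markers were found. Their summed level was 43026 to 58048 CPM in 7 libraries and 21216 CPM in the experiment 2 library of D10. In that library COL1A1 was at 1295 CPM and COL1A2 at 2862 CPM, against at least 8694 and 10121 CPM elsewhere. COL3A1, DCN, PDGFRB, THY1 and VIM were also lowest there, while LUM, PDGFRA and FN1 lay within the range of the other libraries. The paper reports several collagens among the genes that fell in recipients of senescent medium. Whether the low values of this library belong to that response was not tested. Fitted changes of the named genes called with the block at D10 are also given without that library. Epithelial markers summed to 0.316 to 0.82 CPM and leukocyte markers to 0.218 to 1.03 CPM. The 4 endothelial markers summed to 42.5 to 122 CPM, nearly all from TEK, while PECAM1 had 0 to 13 counts and CDH5 0 to 5. In bulk RNA, a change in some of the cells and a smaller change in every cell cannot be told apart.

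At D10, CA12, ENO2 and HK2 were higher and BHLHE40 was lower than at D0 in both experiments, while most of the glycolytic pathway was not called. In edgeR's quasi-likelihood test by group, adjusted by Benjamini-Hochberg over all 13798 genes with a threshold of 0.05, 0 of the 40 genes were called on any day. The background was 0% of all genes in D4, 0% in D7 and 0.29% in D10. The smallest adjusted p among the 40 genes was 1 for D4, 0.662 for D7 and 0.0522 for D10, and 2, 4 and 4 of them had an unadjusted p under 0.05, against 2.96%, 4.34% and 7.94% of all genes. Since the replicate numbers mark independent experiments, the test was also fitted with the experiment as a block. The blocked test called 0 of 40 at D4, 0 of 40 at D7 and 4 of 40 at D10, against backgrounds of 0.275%, 1.25% and 4.99%. The 4 genes were CA12, ENO2, HK2 and BHLHE40, of which 3 rose, against 2.54% of all genes, and 1 fell, against 2.45%. DESeq2, without a block, called 0, 1 and 3 of the 40, against 0.348%, 0.848% and 2.83% of all genes: EPAS1 at D7, and CA12, ENO2 and BHLHE40 at D10.

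The promoters of these 4 genes are shown because the genes were called with the block and have an entry in the promoter table. Each promoter holds the core letters of a hypoxia response element, which played no part in the choice. The sequences are from RefSeq on GRCh38.p14, run from 250 bases before to 50 bases after the annotated start and are written along the gene's own strand. Capitals mark ACGTG or GCGTG on either strand, which read as CACGT and CACGC when they lie on the opposite strand, and CACGTG is ACGTG on both strands overlapping. The windows are chr15:63381797-63382096 on the minus strand for CA12, chr12:6914330-6914629 on the plus strand for ENO2, chr2:74833877-74834176 on the plus strand for HK2 and chr3:4979187-4979486 on the plus strand for BHLHE40.
CA12: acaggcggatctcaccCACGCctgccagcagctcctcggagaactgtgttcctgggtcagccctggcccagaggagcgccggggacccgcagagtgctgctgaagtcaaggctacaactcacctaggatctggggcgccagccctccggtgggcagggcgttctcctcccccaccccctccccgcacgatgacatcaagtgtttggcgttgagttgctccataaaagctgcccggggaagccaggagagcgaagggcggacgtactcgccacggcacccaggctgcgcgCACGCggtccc
ENO2: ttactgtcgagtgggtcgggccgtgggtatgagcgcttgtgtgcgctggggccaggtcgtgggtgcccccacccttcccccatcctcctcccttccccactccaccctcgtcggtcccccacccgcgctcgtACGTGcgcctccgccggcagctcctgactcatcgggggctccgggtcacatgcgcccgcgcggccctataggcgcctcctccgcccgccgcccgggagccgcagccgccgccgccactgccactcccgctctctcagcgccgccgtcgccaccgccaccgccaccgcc
HK2: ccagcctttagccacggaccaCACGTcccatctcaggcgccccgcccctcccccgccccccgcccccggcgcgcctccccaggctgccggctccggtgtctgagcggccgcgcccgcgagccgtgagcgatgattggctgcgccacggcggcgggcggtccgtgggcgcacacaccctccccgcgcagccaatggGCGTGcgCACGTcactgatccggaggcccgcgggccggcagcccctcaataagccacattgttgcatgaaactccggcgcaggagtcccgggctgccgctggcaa
BHLHE40: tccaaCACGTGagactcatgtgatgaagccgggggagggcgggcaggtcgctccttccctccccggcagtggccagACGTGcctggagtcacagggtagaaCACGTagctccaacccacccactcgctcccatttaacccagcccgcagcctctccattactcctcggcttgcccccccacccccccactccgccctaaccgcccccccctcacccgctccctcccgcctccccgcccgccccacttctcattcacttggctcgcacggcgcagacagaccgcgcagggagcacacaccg

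CA12 held 2 separate matches, ENO2 1, HK2 3 and BHLHE40 3. The match of ENO2 began 118 bases before its RefSeq start, and in HK2 a pair lay close together, beginning 55 and 48 bases before that of HK2. The gene spans given below are from GENCODE, and their ends differ from these RefSeq starts. The windows of CA12, ENO2 and BHLHE40 lie within their GENCODE spans. Among the 37 of 42 genes with an entry in the promoter table, 28 (75.7%) held at least 1 match, against 13213 of 27305 promoters (48.4%). All 9 other hypoxia-inducible genes with an entry held one, as did 12 of 17 glycolytic enzymes. The genes were listed for known roles in glycolysis or the response to low oxygen. All other promoters were not matched to theirs in base composition, and the difference in shares was not tested. A match describes letters in this window and does not show that a HIF protein binds there. The genes with matches included the called ones and many that were not called.

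CA12 (ENSG00000074410.13, chr15:63321378-63382161, GRCh38) encodes carbonic anhydrase XII, a membrane enzyme that turns over carbon dioxide and bicarbonate at the outer cell surface and is known as a hypoxia-inducible gene. In experiments 1 and 2 its level was 7.04 and 9.68 CPM in the D0 libraries, 8.46 and 13.05 in those of D4, 12.5 and 16.2 in those of D7, and 39.7 and 92.0 CPM in those of D10. Both D10 libraries stood far above every other library, and the 2 of D10 differed widely from each other. Its mean went from 8.36 ± 1.87 to 65.9 ± 36.9 CPM. The fitted log2 fold change was 2.97 ± 0.45 (SE), a fitted fold of 7.86. The adjusted p was 0.0522 in edgeR's quasi-likelihood test by group, 5.0e-04 with the replicate block and 2.32e-08 in DESeq2. Within experiments the log2 change was 2.47 and 3.23. Between D7 and D10 alone the log2 change was 2.20 (edgeR's quasi-likelihood test by group, adjusted p = 0.696) and 2.12 with the block (adjusted p = 0.00726). CA12 was the single one of the 40 genes called in the blocked comparison of D10 with D7, where 0.304% of all genes were called higher and 0.0145% lower.

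ENO2 (ENSG00000111674.8, chr12:6913745-6923698, GRCh38) encodes the neuronal form of enolase, the enzyme that makes phosphoenolpyruvate. Its level was 38.9 and 34.6 CPM in D0, then 57.3 and 47.1 CPM in D4, 65.8 and 48.0 CPM in D7, and finally 78.6 and 72.3 CPM in D10. Both libraries of each later day lay above both D0 libraries, and those of D10 above all others. The log2 fold change was 0.51 ± 0.23 (SE) in D4, 0.63 ± 0.23 in D7 and 1.04 ± 0.23 in D10, with edgeR's quasi-likelihood adjusted p-values of 1, 0.928 and 0.129 by group and 0.261, 0.0944 and 0.00448 with the block. Its mean level was 36.8 ± 2.99 CPM at D0 and 75.4 ± 4.5 CPM at D10.

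HK2 (ENSG00000159399.9, chr2:74833981-74893359, GRCh38) encodes hexokinase 2, which phosphorylates glucose on its entry to the cell and can sit on the mitochondrial outer membrane. Its level was 97.3 and 77.3 CPM in the D0 libraries, 87.8 and 91.2 in those of D4, 113 and 95.0 in those of D7, and 144 and 157 CPM in those of D10. The D10 libraries were the highest, whereas D4 and D0 overlapped. The mean went from 87.3 ± 14.1 to 150.5 ± 9.83 CPM and the log2 fold change at D10 was 0.79 ± 0.22 (SE). The adjusted p was 0.23 in edgeR's quasi-likelihood test by group, 0.0251 with the block and 0.0707 in DESeq2. Of the 50-base words in its exons, 8.16% also occur in the pseudogene HK2P1.

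BHLHE40 (ENSG00000134107.4, chr3:4979116-4985323, GRCh38) encodes a basic helix-loop-helix repressor that responds to hypoxia and takes part in circadian control. Its level was 39.3 and 40.5 CPM in D0, then 35.9 and 38.5 CPM in D4, 35.2 and 29.01 CPM in D7, and finally 19.8 and 18.4 CPM in D10. The D10 libraries were the lowest and close to each other, and both libraries of every later day lay below both of D0. The mean went from 39.9 ± 0.88 to 19.1 ± 1.0 CPM. The log2 fold change was -1.06 ± 0.20 (SE), with an adjusted p of 0.0835 in edgeR's quasi-likelihood test by group, 0.00617 with the block and 0.00455 in DESeq2. BHLHE40 thus moved opposite to the other called genes.

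**Figure D1:**
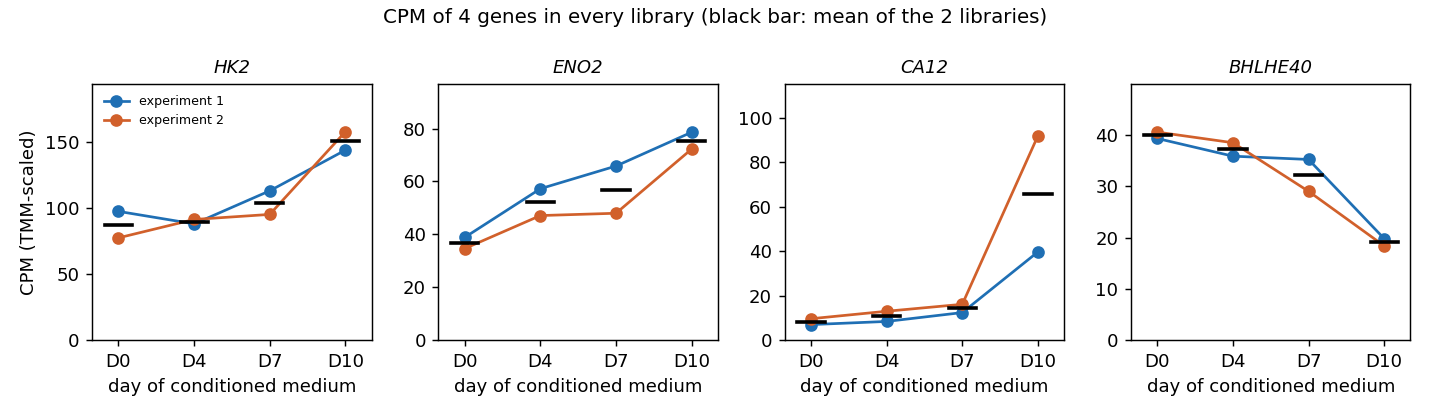
CPM (y axis, from 0) of HK2, ENO2, CA12 and BHLHE40 against the day of the conditioned medium (x axis), with a point for each library, colored by experiment, and black bars for the mean of the 2 libraries. CA12 reached 39.7 and 92.0 CPM at D10 after at most 16.2 CPM before, and BHLHE40 lay at 19.8 and 18.4 CPM at D10 after at least 29.01 CPM before.

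The 4 blocked calls at D10 were refitted without each library in turn. CA12 was called in 8 of 8 such fits, BHLHE40 in 7, ENO2 in 6 and HK2 in 5. The experiment 2 library of D10 was the one with the low marker sum. Without it the blocked log2 fold change was 2.51 for CA12, 0.95 for ENO2, 0.64 for HK2 and -1.03 for BHLHE40. That fit leaves 1 library in D10, whose spread it cannot measure. For ENO2, HK2 and BHLHE40 the call was lost without a D0 library, and for HK2 also without the experiment 2 library of D7. Without the experiment 1 library of D0 the adjusted p in edgeR's blocked quasi-likelihood test was 0.0706 for ENO2 and 0.0957 for HK2. Without the experiment 2 library of D0 it was 0.0818 for ENO2, 0.45 for HK2 and 0.114 for BHLHE40. Without the D7 library it was 0.0605 for HK2.

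Of the 17 glycolytic enzymes, 13 had a positive fitted change at D4 and 10 at D10, against 7091 and 6960 of the 13798 tested genes. Apart from ENO2 and HK2 none of the enzymes was called on any day by group, with the block or in DESeq2. Their median log2 fold change was 0.17 in D4, 0.049 in D7 and 0.083 in D10, against 0.0088, -0.00041 and 0.0037 over all tested genes. At D10, 6 of the 17 were higher in both experiments, 1 was lower in both and 10 differed in sign between the experiments, while 31.1% of all genes were higher in both experiments and 32.3% lower in both. At D4, 12 of the 17 were higher in both experiments, against 29.8% of all genes, and 1 was lower in both, against 28.9%. None of those 12 was called at D4, whether by edgeR's quasi-likelihood test by group or with the block, which called 0% and 0.275% of all genes, or by DESeq2, which called 0.348%. With the block, 2 of the 17 had an unadjusted p under 0.05 at D4, against 8.15% of all genes, and without it 0 did.

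GAPDH, which oxidizes glyceraldehyde 3-phosphate and is often used as a reference gene, was the most abundant of the 42 per exon length, at a mean of 1179 CPM per kb at D0. Its level was 4270.2 and 2759 CPM in the D0 libraries, 5466 and 3382 in those of D4, 4762 and 2939 in those of D7, and 5247 and 3018 CPM in those of D10. In every group experiment 1 was well above experiment 2, and the days overlapped. Within both experiments GAPDH was higher on every later day than at D0, by 0.30 and 0.13 on the log2 scale at D10. PGK1, which yields the first ATP of the pathway, was at 515 and 357 CPM in D0, then 546 and 395 CPM in D4, 542 and 320.1 CPM in D7, and finally 609 and 315 CPM in D10. Here too the experiments separated more than the days did. LDHA, the lactate dehydrogenase subunit that favors lactate formation, was at 524 and 388 CPM in the D0 libraries, 590.5 and 508 in those of D4, 658 and 393 in those of D7, and 707 and 295 CPM in those of D10, so that the experiments differed most at D10. By group the log2 fold changes at D10 were 0.23 ± 0.45 (SE) for GAPDH, 0.083 ± 0.41 for PGK1 and 0.14 ± 0.44 for LDHA, each smaller than its error. That error includes the difference between the experiments. With the block they were 0.21 ± 0.21 for GAPDH, 0.035 ± 0.18 for PGK1 and 0.045 ± 0.25 for LDHA.

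**Figure D2:**
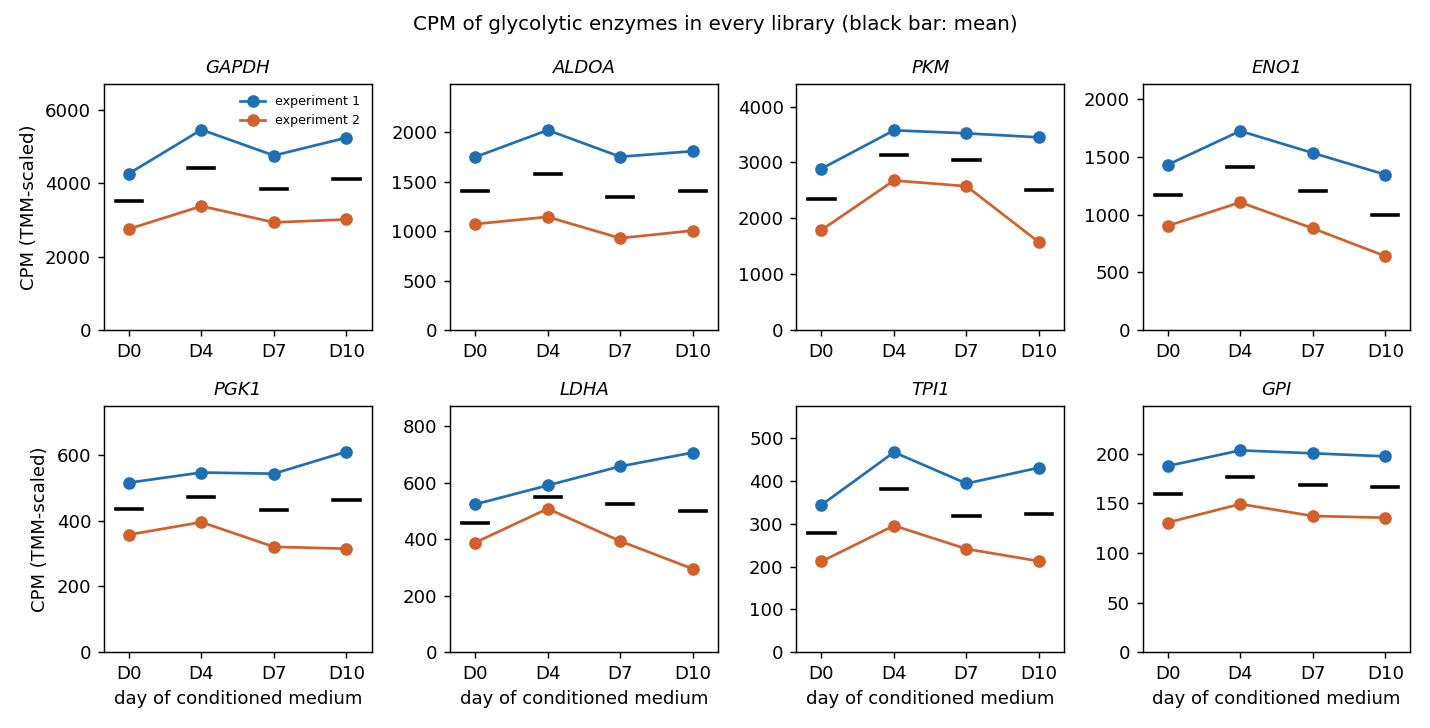
CPM (y axis, from 0) of 8 glycolytic enzymes against the day of the conditioned medium (x axis), with a point for each library, colored by experiment, and black bars for the mean of 2 libraries. Experiment 1 lies above experiment 2 in every panel and on every day, with GAPDH at 4270.2 to 5466 CPM in experiment 1 and 2759 to 3382 CPM in experiment 2.

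The difference between the experiments was itself measured, a comparison chosen after the data were seen. In the blocked edgeR quasi-likelihood test 12 of the 17 enzymes were lower in experiment 2 than in experiment 1, against 16.2% of all genes, and 0 were higher, against 18.6%. The log2 difference, experiment 2 minus experiment 1, was -0.82 for ALDOA (adjusted p = 0.00331), the aldolase of most tissues, and -0.70 for GAPDH. The median enzyme was higher in experiment 1 by 0.52 in D0, 0.42 in D4, 0.54 in D7 and 0.80 in D10 on the log2 scale, with 17, 16, 17 and 13 of 17 enzymes higher in experiment 1. On the same scale, experiment 1 minus experiment 2, the medians of the other hypoxia-inducible genes were -0.11, -0.030, 0.25 and 0.15, and those of all tested genes 0.0015, -0.016, 0.0033 and 0.0032. Over the 40 genes, 16 were lower in experiment 2 and 3 were higher, namely HIF1A by 0.53, KDM3A by 0.59 and CA12 by 0.70. What differed between the experiments is not given in the sources used here.

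Pairs of related enzymes were compared as ratios of counts within a library, which do not depend on the scaling. The log2 ratio of HK2 to HK1, the hexokinase of most tissues, was -1.09 and -1.10 in D0, then -1.19 and -0.91 in D4, -1.04 and -0.84 in D7, and finally -0.59 and 0.07 in D10. Both D10 libraries were above all others. Per exon length, HK2 went from a mean of 14.4 to 24.8 CPM per kb between D0 and D10, and HK1 from 29.6 to 29.04 CPM per kb, so HK2 stayed the lower in the mean. The log2 ratio of ENO2 to ENO1, the common enolase, was -5.20 and -4.70 in D0, then -4.91 and -4.55 in D4, -4.54 and -4.20 in D7, and finally -4.10 and -3.15 in D10. It was higher on each later day than on the day before in both experiments, yet ENO2 stayed far below ENO1, at 17.6 against 189 CPM per kb at D10. Part of the rise at D10 came from ENO1, whose log2 change from D0 was -0.088 and -0.49, against 1.01 and 1.06 for ENO2. The log2 ratio of LDHA to LDHB, the subunit that favors pyruvate formation, was 1.051 and -0.74 at D10 against 0.59 and 0.17 at D0, so the D10 libraries lay on opposite sides of D0. With 2 against 2 libraries an exact permutation test cannot reach 0.05, and these ratios carry no test.

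None of the 3 glucose transporters and 2 lactate and pyruvate transporters among the 42 genes was called by group, with the block or in DESeq2. SLC2A1, the glucose transporter GLUT1, was at 471 and 349 CPM in D0, then 448 and 354 CPM in D4, 399 and 277 CPM in D7, and finally 358 and 199 CPM in D10. It was lower at D7 and D10 than at D0 within both experiments, but the groups overlapped. The log2 fold change at D10 was -0.56 ± 0.35 (SE), with an adjusted p of 0.918 in edgeR's quasi-likelihood test by group and 0.105 with the block. SLC2A3, a glucose transporter best known from neurons, and SLC2A6, one found on lysosomes, had log2 fold changes of 0.051 and 0.035 at D10 by group, and that of SLC2A6 was -0.033 with the block. SLC16A3, the lactate exporter MCT4, was at 480.2 and 296 CPM in the D0 libraries, 644 and 395 in those of D4, 554 and 343 in those of D7, and 686 and 380.1 CPM in those of D10. It was higher on every later day than at D0 within both experiments, experiment 2 was lower throughout, and the groups overlapped. Its log2 fold change at D10 was 0.46 ± 0.43 (SE), with an adjusted p of 0.998 in edgeR's quasi-likelihood test by group and 0.178 with the block.

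PFKFB3 and PFKFB4 make and remove fructose 2,6-bisphosphate, an activator of phosphofructokinase. PFKFB4 was at 16.2 and 12.96 CPM in D0, then 23.0 and 12.8 CPM in D4, 17.6 and 12.7 CPM in D7, and finally 21.0 and 22.6 CPM in D10. Both D10 libraries lay above both D0 libraries, with 1 D4 library higher still. Its log2 fold change at D10 was 0.58 ± 0.33 (SE; edgeR's quasi-likelihood test, adjusted p = 0.841 by group and 0.201 with the block), and that of PFKFB3 was 0.21 ± 0.23.

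Pyruvate dehydrogenase kinases hold pyruvate back from the mitochondrial oxidation step. PDK1, a known HIF target, was at 26.1 and 30.5 CPM in the D0 libraries, 34.5 and 66.95 in those of D4, 45.5 and 55.1 in those of D7, and 34.2 and 33.8 CPM in those of D10. All later libraries lay above both D0 libraries, with D4 and D7 above D10, by little in 1 library. The log2 fold change was 0.84 ± 0.31 (SE) at D4, 0.83 ± 0.31 at D7 and 0.26 ± 0.31 at D10, and the adjusted p in edgeR's blocked quasi-likelihood test was 0.249, 0.159 and 0.57. PDK4, which is known to respond to fasting and glucocorticoids, was at 2.93 and 0.51 CPM in D0, then 2.64 and 2.61 CPM in D4, 4.28 and 16.1 CPM in D7, and finally 17.7 and 1.97 CPM in D10. The highest libraries of D7 and D10 came from different experiments, and the fitted log2 fold change at D10, 2.53 ± 1.13 (SE), had an adjusted p of 0.652 in edgeR's quasi-likelihood test by group and 0.263 with the block.

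HIF1A was higher at D10 and EPAS1 lower on every later day than at D0 in both experiments, without a call by group. HIF1A (ENSG00000100644.16, chr14:61695513-61748259, GRCh38) was at 240.3 and 326 CPM in the D0 libraries, 193 and 334 in those of D4, 279 and 326 in those of D7, and 360.2 and 571 CPM in those of D10. The D10 libraries were the 2 highest, and experiment 2 was above experiment 1 in every group. The log2 fold change at D10 was 0.72 ± 0.35 (SE) by group and 0.70 ± 0.18 with the block. The adjusted p was 0.74 in edgeR's quasi-likelihood test by group and 0.0689 with the block. EPAS1 (ENSG00000116016.13, chr2:46293667-46386703, GRCh38) was at 1221 and 1441 CPM in D0, then 695 and 752 CPM in D4, 743 and 719 CPM in D7, and finally 871 and 1042 CPM in D10. All 6 later libraries lay below both D0 libraries, and D4 and D7 lay below D10. The log2 fold change was -0.88 ± 0.25 (SE) at D4, -0.86 ± 0.25 at D7 and -0.48 ± 0.25 at D10. In edgeR's quasi-likelihood test the adjusted p was 1, 0.662 and 0.8 by group and 0.114, 0.0727 and 0.202 with the block, whereas DESeq2 called the difference at D7 with an adjusted p of 0.0458.

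The log2 ratio of EPAS1 to HIF1A counts was 2.35 and 2.14 in D0, then 1.85 and 1.17 in D4, 1.42 and 1.14 in D7, and finally 1.27 and 0.87 in D10. It was lower on each later day than on the day before in both experiments, and all later libraries lay below both D0 libraries. Per exon length EPAS1 remained the higher, at 182 against 55.0 CPM per kb at D0 and 131 against 90.4 CPM per kb at D10. EGLN1, the main prolyl hydroxylase that marks HIF-α, had a log2 fold change of 0.052 ± 0.20 (SE) at D10. VHL, which binds hydroxylated HIF-α for degradation, had 0.38 ± 0.22, and both its D10 libraries lay above both D0 libraries. EGLN3 had 1 to 2 counts in each library, below the 3 counts taken as the floor.

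**Figure D3:**
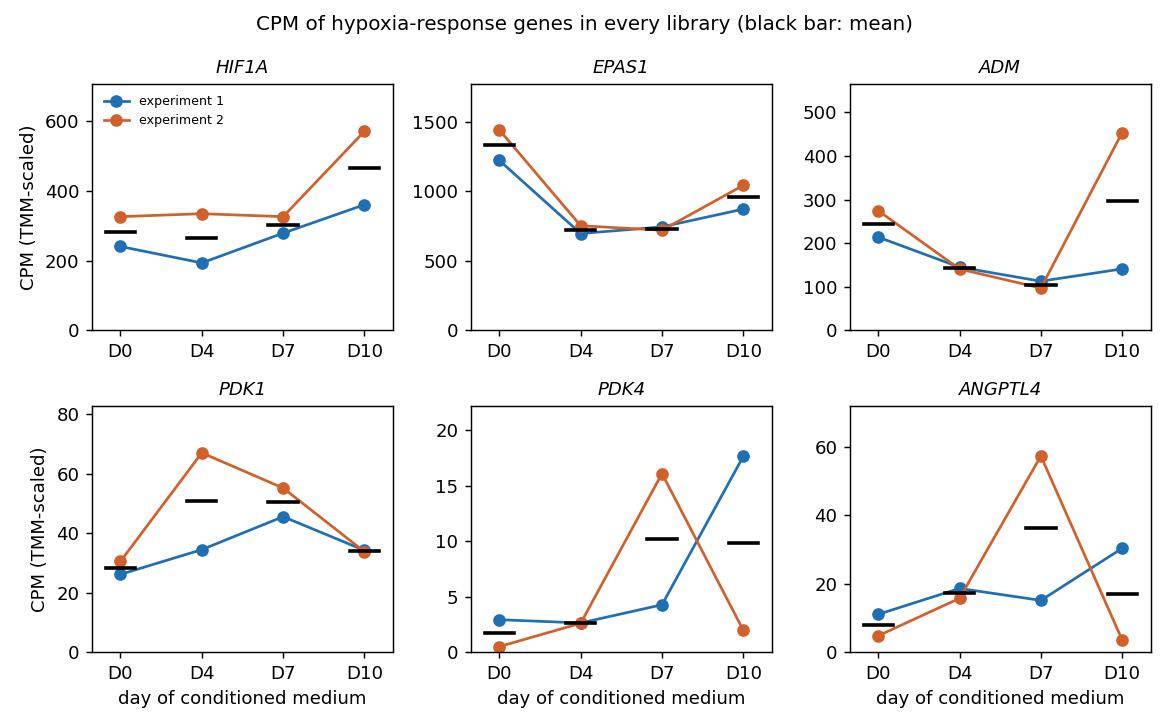
CPM (y axis, from 0) of regulators and hypoxia-inducible genes against the day of the conditioned medium (x axis), with a point for each library, colored by experiment, and black bars for the mean of 2 libraries. EPAS1 lies at 1221 and 1441 CPM at D0 and no higher than 1042 CPM later, and HIF1A is highest at D10 with 360.2 and 571 CPM.

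The other hypoxia-inducible genes showed no common direction. Over the 10 tested, the median log2 fold change was -0.0017 in D4, -0.15 in D7 and 0.088 in D10, and the values at D10 ran from -1.06 for BHLHE40 to 2.97 for CA12. At D10, 2 of the 10 were higher in both experiments, 3 were lower in both and 5 differed in sign between the experiments, and the median was 0.26 in experiment 1 and -0.34 in experiment 2. The glycolytic enzymes had medians of 0.059 and 0.0048 at D10 in the same experiments, and all tested genes 0.00080 and -0.014.

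ADM, which encodes the vasodilating peptide adrenomedullin and is a classic hypoxia-inducible gene, was at 214 and 274 CPM in the D0 libraries, 145 and 141 in those of D4, 112 and 96.7 in those of D7, and 141 and 454 CPM in those of D10. All D4 and D7 libraries lay below both D0 libraries, and the D10 libraries lay on opposite sides of them. Its log2 fold change was -0.77 ± 0.47 (SE) at D4, -1.22 ± 0.48 at D7 and 0.29 ± 0.47 at D10, and the adjusted p at D7 was 1 in edgeR's quasi-likelihood test by group and 0.28 with the block. CA9, the carbonic anhydrase most used as a hypoxia marker, had 1 and 0 counts in D0, then 2 and 1 in D4, 2 and 3 in D7, and finally 9 and 3 in D10. These counts were too few for a comparison, and 30.3% of the 50-base words of CA9 also occur in ARHGEF39 on the opposite strand.

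Among the remaining genes of this group, ANGPTL4, a secreted inhibitor of lipoprotein lipase, was at 11.1 and 4.8 CPM in D0, then 18.6 and 15.7 CPM in D4, 15.1 and 57.3 CPM in D7, and finally 30.3 and 3.55 CPM in D10. Like PDK4, it was highest in the experiment 2 library of D7 and in the experiment 1 library of D10, and its log2 fold change at D10 was 1.10 ± 0.94 (SE). BNIP3 and BNIP3L, receptors for the removal of mitochondria, had log2 fold changes of 0.20 ± 0.25 (SE) and -0.33 ± 0.23 at D10. NDRG1, a stress-responsive gene, had -0.060 ± 0.51, P4HA1, a collagen prolyl hydroxylase subunit, -0.028 ± 0.34, and KDM3A, a histone demethylase, 0.41 ± 0.37. ANKRD37 was at 0.835 to 1.82 CPM and had -0.18 ± 0.41.

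**Figure D4:**
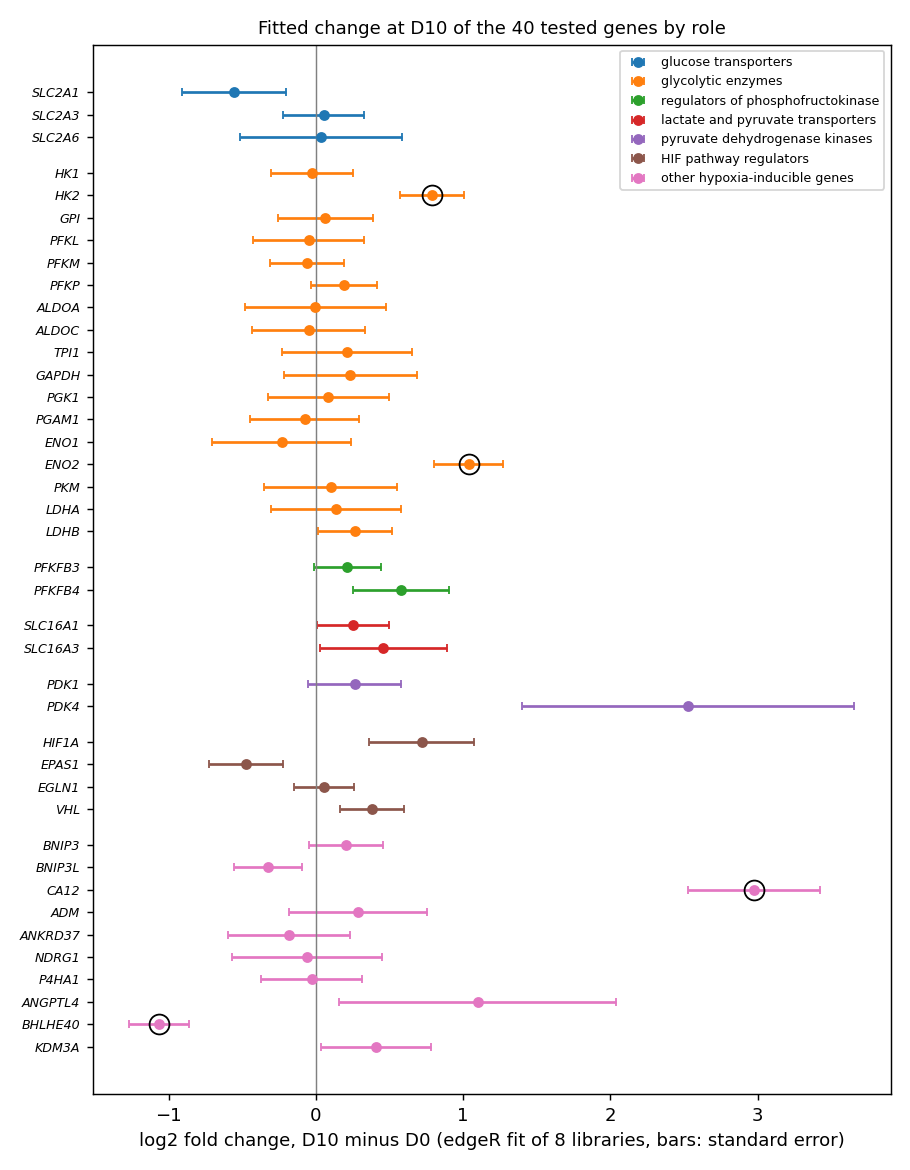
Fitted log2 fold change of D10 minus D0 (x axis, points, with bars for the standard error) for the 40 tested genes (y axis), colored by role, with black circles around the 4 genes called with the replicate block. Points and bars are from the fit by group. CA12 (2.97) and BHLHE40 (-1.06) mark the ends of the range, and most glycolytic enzymes lie within their standard error of 0.

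Over all 40 genes at D10, 16 were higher in both experiments, 6 lower in both and 18 differed in sign between the experiments, against 31.1% higher and 32.3% lower among all tested genes. Both D10 libraries lay above both D0 libraries for 9 of the 40, against 15% of all genes, and below them for 4, against 16%. At D7 these counts were 7 higher, against 13.7%, and 7 lower, against 15.2%. At D4 they were 5 higher, against 9.73%, and 6 lower, against 12.6%. The comparisons share the D0 libraries.

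**Figure D5:**
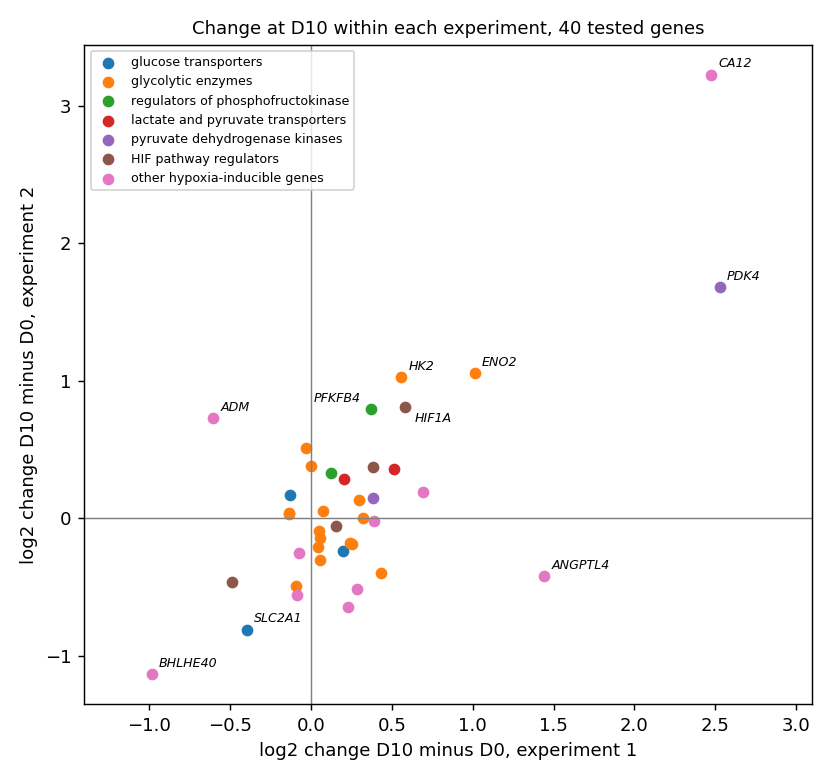
Change in log2 CPM of D10 minus D0 within experiment 1 (x axis) and within experiment 2 (y axis) for the 40 tested genes, a point for each gene colored by role. CA12 lies at 2.47 and 3.23 and BHLHE40 at -0.98 and -1.13, while the 18 genes in the upper left and lower right differed in sign between the experiments.

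Further genes of the same pathways were counted from 3 wider lists. None of their tested genes was called by group on any day, that is, of 26 further genes of glycolysis, gluconeogenesis and pyruvate use, 13 further HIF regulators and 28 further hypoxia-inducible genes. With the block 0 were called at D4 and D7, and 2 at D10, where 4.99% of all genes were called, 1 higher and 1 lower. SLC2A12, a glucose transporter, was at 15.3 and 11.1 CPM in the D0 libraries, 5.12 and 5.74 in those of D4, 5.65 and 3.80 in those of D7, and 3.33 and 1.34 CPM in those of D10. It was lower in every later library than at D0, with a log2 fold change of -2.49 ± 0.46 (SE) at D10 (edgeR's quasi-likelihood test, adjusted p = 0.081 by group and 0.00432 with the block, and DESeq2, adjusted p = 1.08e-04). Without the experiment 2 library of D10 the blocked value was -2.12, and over the 8 blocked fits without 1 library it ran from -3.10 to -2.12. VEGFA, the vascular growth factor and a HIF target, was at 62.8 and 97.5 CPM in the D0 libraries, 62.9 and 107 in those of D4, 74.6 and 109 in those of D7, and 97.2 and 232 CPM in those of D10. Its groups overlapped at D10, while the log2 change was 0.63 in experiment 1 and 1.25 in experiment 2, with a fitted log2 fold change of 1.04 ± 0.46 (SE; edgeR's quasi-likelihood test, adjusted p = 0.652 by group and 0.0213 with the block). Without the experiment 2 library of D10 the blocked value was 0.64, down from 0.96, and the call was lost without either D0 library. The median log2 fold changes of the 3 lists at D10 were -0.067, -0.062 and 0.24 in the order above. Of the 28 further hypoxia-inducible genes, 22 had a positive fitted change at D10, against 6960 of the 13798 tested genes. In both experiments 15 were higher and 5 lower, against 31.1% and 32.3% of all genes. Both D10 libraries lay above both D0 libraries for 10 and below them for 1, against 15% and 16%.

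Some of the 42 genes share sequence with others, which the counting could split. More than 20% of 50-base words occurred in another gene for 5 of them, namely ALDOA (48.1%), ANKRD37 (32.3%), PGAM1 (30.7%), CA9 (30.3%) and LDHB (29.4%), and more than 5% for 15. GAPDH had 17.7%. Values of these genes are uncertain, but the shares do not give the size of an error, which was not measured. CA12 had 0.164%, ENO2 0.0216%, and BHLHE40 and EPAS1 0%.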

How the data were processed

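Poly(A) RNA of 8 libraries in 4 groups of 2 was sequenced from stranded libraries. The table that the authors deposited holds read counts per gene without normalization, used here, and RPM values, which were not used. Per the submitters' processing notes the tools include STAR 2.5 and DESeq2 and the build is GRCh38 (hg38). The strand setting and annotation are not given in the sources used here, so overlapping genes can share counts. A header reading DO was taken as D0, replicate 1.

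Genes were filtered with filterByExpr, leaving 13798, scaled with TMM and tested with edgeR 4.0.16 (glmQLFit and glmQLFTest, R 4.3.3) in one fit by group, with Benjamini-Hochberg adjustment over all of them. Log2 CPM used a prior count of 2, and count ratios had 0.5 added. Standard errors are from the fit by group, which ignores the pairing, unless the block is named. They were taken as the absolute log2 fold change over the square root of the test's F statistic. Alternatives were DESeq2 1.42.0, its size factors, library totals, a fit of only the groups compared, a replicate block, no filter, a minimum of 10 counts in all libraries and leaving out each library. The replicate numbers pair the libraries: the methods describe 2 independent experiments, and deviations of same-numbered libraries from group means correlated across genes (not independent replicates) with r from 0.418 to 0.722 in all 6 pairs of groups. Nothing says whether the experiments used separate donor cultures, so p-values measure the spread between these libraries. The methods were run on simulated counts with less spread than in these libraries. Planted changes were larger than that of HK2, so the run does not show how often changes of that size are found.

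The members and lists were chosen with earlier results of these data known. Values in every library are given for genes called by group or with the block, for the largest change of each role at D10, and for HIF1A, EPAS1, GAPDH, PGK1, LDHA, SLC2A1, HK2, PDK1, CA9 and ADM. ANGPTL4 was added after its values were seen. Of each wider list, at most 3 called genes are named. The results of 1 gene are not reported here. Comparisons of D10 with D7 and between experiments, and blocked fits without a library, were also chosen after seeing the data. Positions and 50-base words come from GENCODE 29 on GRCh38, which holds 99.6% of the gene identifiers, and promoters from RefSeq. Figures were drawn with Python 3.11.15 and matplotlib 3.10.9.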

Additional observations from a re-analysis of the deposited data

How the results depend on the processing

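The number of genes called at D4, 0 by group, was 48 in DESeq2, 21 with no filter and 38 with the replicate block, and at D7, 0 by group, it was 117, 93 and 172. At D10, 40 were called by group, 390 in DESeq2, 371 with no filter, 25 with library totals, 20 with at least 10 counts in every library, 0 with the compared groups only and 688 with the replicate block, and 0 to 155 without 1 library, with 0 without the experiment 1 library of D0 and 155 without the experiment 1 library of D10. The cause was not tested. The 4 blocked calls among the 40 genes at D10 became 2 and 1 without the D0 libraries of experiments 1 and 2, where 2.23% and 0.789% of all genes were called, 9 and 8 without those of D10 (13.3% and 6.32%), and 3 or 4 without another library (3.42% to 4.42%). Where a group was left with 1 library, it was assumed to vary like the others. The median of the glycolytic enzymes ran without 1 library from -0.091 to 0.50 at D4, -0.21 to 0.37 at D7 and -0.29 to 0.35 at D10, and was 0.18 at D4 with DESeq2 and with its size factors. That of the other hypoxia-inducible genes ran from -0.14 to 0.011, -0.36 to 0.0067 and -0.29 to 0.36. Of 15 genes refitted under every alternative, 10 changed sign without 1 library and 0 under the 7 others. Among all 40 genes, SLC2A6 at D10 (0.035 by group, -0.033 with the replicate block), ALDOA at D10 and HK1 and PFKM at D4 changed sign under at least 1 of those 7. At D4 the log2 fold change ran from -0.12 to 0.21 for HK2, -0.23 to 0.21 for SLC2A1, -0.19 to 0.66 for PFKFB4, -0.16 to 2.35 for PDK4, -0.55 to 0.24 for HIF1A, -0.057 to 0.69 for GAPDH and -0.14 to 0.40 for PGK1. At D7 it ran from -0.19 to 0.28 for PFKFB4, -0.17 to 0.60 for SLC16A3, -0.11 to 0.33 for HIF1A, -0.25 to 0.48 for GAPDH, -0.44 to 0.32 for PGK1 and -0.21 to 0.53 for LDHA. At D10 it ran from -0.010 to 0.85 for SLC16A3, -0.20 to 0.58 for GAPDH, -0.45 to 0.48 for PGK1, -0.61 to 0.63 for LDHA and -0.79 to 0.91 for ADM. Adding the replicate block brought CA12 (2.90), ENO2 (1.04), HK2 (0.79) and BHLHE40 (-1.07) past the threshold at D10 and changed no other call among the named members. CA12 was also called with no filter (2.98) and without the experiment 1 library of D10 (3.47). Depth limited EGLN3 and CA9, which could not be tested.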
